A study of Arabidopsis thaliana with 9 samples.

Results

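Cytokinin signalling runs through a chain of proteins that hand on a phosphate group, and 10 genes of that chain were followed in the dissected inflorescence meristem of Arabidopsis thaliana. They encode the 3 receptors AHK2, AHK3 and AHK4, the 3 histidine phosphotransfer proteins AHP2, AHP3 and AHP5, and the 4 type-B response regulators ARR1, ARR2, ARR10 and ARR12. The genes were taken by locus identifier, not by any measured value. All 10 were among the 25760 genes listed in the count table, and all 10 passed the filter on low counts.

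The study compared 3 genotypes with 3 libraries each. The wild type is labelled col-0 and the mutant csld5, which is altered in CSLD5, a cellulose synthase-like gene of the cell wall. The genotype pATML1::GFP+CSLD5-csld5, called complemented here, is the csld5 mutant with GFP and CSLD5 driven by the ATML1 promoter, known for its activity in the outermost cell layer. Where the transgene's product accumulated was not measured here. The labels give no allele, plant age, number of transgenic lines or number of plants per library, so the p-values below speak only of the spread among these libraries, which may be technical.

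Cytokinin binds to the AHK receptors at membranes, where these histidine kinases phosphorylate themselves. The phosphate passes to the AHP proteins, which move between cytosol and nucleus, and from them to the type-B regulators, DNA-binding activators of cytokinin target genes. Among the targets are the type-A regulators, which dampen the same pathway. In the shoot and inflorescence meristem, cytokinin is known for promoting cell division and for sustaining WUS, the homeobox gene that maintains stem cells.

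Total counts ran from 35543318 to 45679471 per library, and each of the 10 genes had between 648 and 3762 reads in every library. In normalised counts (CPM, scaled to library size) CSLD5 averaged 130.9 in the wild type, 27.3 in the mutant and 935 with the transgene, so the target gene followed the labels. Reads of the transgene may be counted at CSLD5. The 6 genes listed for the meristem summed to 316 to 336 CPM in col-0, 340 to 369 CPM in csld5 and 310 to 333 CPM in complemented libraries. ATML1 was the largest part, at a mean of 140 CPM in col-0, and its promoter is the one known for the outermost layer. Of the 5 tested, 3 were called higher and 1 lower in csld5 against col-0 (edgeR adjusted p below 0.05). The stem cell marker CLV3, also on that list, was barely detected, at a mean of 0.0528 CPM in col-0 and at 0 in all 3 csld5 libraries. The summed level of 10 vascular markers was 233 to 240, 244 to 299 and 223 to 226 CPM in the same order of genotypes. That of 14 late pollen genes was 201 to 306, 349 to 589 and 286 to 339 CPM. VGD1 was the largest part of it, at a mean of 265 CPM in csld5. In csld5 against col-0, 2 of the 10 vascular and 9 of the 14 pollen genes were called higher and 0 lower. Over all genes tested, 21.1% were called higher and 20.4% lower. The part of such differences in cell make-up in the results below was not tested, and in bulk tissue fewer cells of a type and less RNA per cell cannot be told apart.

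In the wild type, all 10 genes were expressed within a range of 4.81 between the highest and the lowest mean. Levels are compared between genes as deposited TPM (transcript abundance scaled by length and library), with SD over 3 libraries. AHP2 stood highest in col-0 at 52.3 ± 2.53 TPM, and its 3 libraries lay above every other gene of the set. AHP5 (28.5 ± 1.5 TPM), ARR12 (26.1 ± 2.7), AHP3 (23.6 ± 2.14) and AHK3 (23.6 ± 0.786) followed, and neighbours in this order overlapped. ARR1 (17.7 ± 0.378 TPM) and AHK2 (16.5 ± 0.0404) each formed a step of their own. ARR10 (14.3 ± 1.85 TPM) and AHK4 (13.0 ± 1.23) overlapped, and ARR2 was lowest at 10.9 ± 0.148 TPM.

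The order differed in csld5. AHP2 averaged 37.7 ± 4.08 TPM there and overlapped with AHK3 at 31.1 ± 2.19 TPM, which had moved to the second place. ARR1, at 23.3 ± 1.99 TPM, overlapped with ARR12 at 23.5 ± 2.0 TPM and lay above AHP5, while its range overlapped with that of AHP3. In complemented libraries AHP2, at 52.8 ± 3.55 TPM, was again above every other gene, AHK3 was again the fifth at 23.5 ± 0.514 TPM, and ARR2 was again lowest at 9.81 ± 0.543 TPM.

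**Figure D1:**
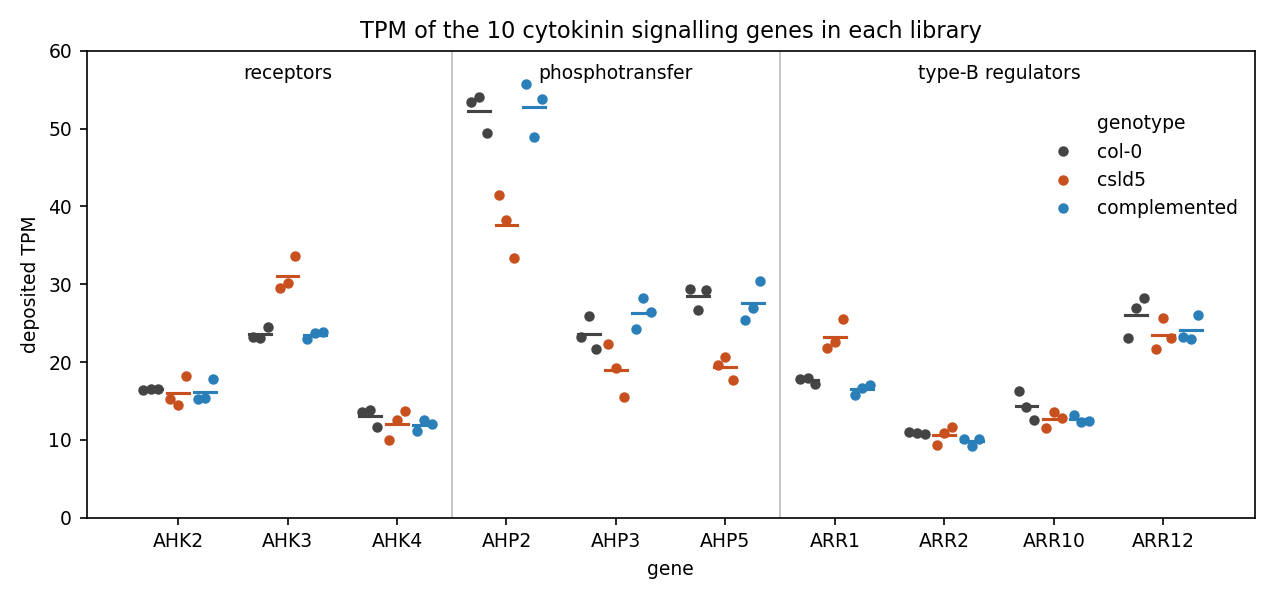
Deposited TPM (vertical axis) of the 10 genes (horizontal axis) in each library, with points for libraries, bars for the mean of 3 and colours for genotypes. The csld5 points lie above both other genotypes for AHK3 and ARR1 and below both for AHP2 and AHP5, while AHK2, AHK4, ARR10 and ARR12 overlap between genotypes.

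The first question the design raises is which steps of the chain differ when CSLD5 is mutated. Between csld5 and col-0, 1 receptor and 1 type-B regulator rose, 2 phosphotransfer genes fell, and the other 6 genes did not pass the test (edgeR quasi-likelihood test, Benjamini-Hochberg adjusted p below 0.05). Over all 22671 genes tested, 21.1% were called higher and 20.4% lower in this comparison. The counts of 2 higher and 2 lower among 10 are close to that background share and are no result about these genes as a set. The same 4 genes were those whose 3 csld5 libraries all lay above or all below the col-0 range in normalised counts, which 25.2% and 25.8% of all genes tested did.

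Among the receptors, AHK3 (AT1G27320, chr1:9486889-9492632, plus strand, TAIR10.1), known for its role in leaf longevity, was the gene that rose. Its deposited TPM was 23.3, 23.1 and 24.5 in the 3 col-0 libraries, 29.6, 30.2 and 33.6 in csld5, and 22.9, 23.8 and 23.9 in complemented plants. Each csld5 library was above each of the other 6, and the other 2 genotypes overlapped. In normalised counts AHK3 went from 75.1 ± 3.0 CPM in col-0 to 97.2 ± 3.8 CPM in csld5, a log2 fold change of 0.37 ± 0.06 (SE, adjusted p = 0.000156, edgeR). In complemented against csld5 it fell, with a log2 fold change of -0.38 ± 0.06 (adjusted p = 0.000144, edgeR).

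AHK2 (AT5G35750, chr5:13911283-13916805, minus strand), a receptor that acts redundantly with AHK3, showed no such shift. It had 16.5, 16.5 and 16.5 TPM in col-0, 15.3, 14.5 and 18.2 TPM in csld5, and 15.3, 15.4 and 17.8 TPM in complemented libraries. The genotypes overlapped, csld5 replicate 3 being the highest of the 9 libraries and csld5 replicate 2 the lowest. Against col-0 the log2 difference of the mutant was -0.06 ± 0.08 (adjusted p = 0.563, edgeR).

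AHK4 (AT2G01830, chr2:362983-369707, minus strand), the receptor known also as CRE1 and WOL, which can take phosphate back from the AHP proteins when no cytokinin is bound, had 13.5, 13.9 and 11.6 TPM in col-0. Its values were 9.97, 12.5 and 13.7 TPM in csld5 and 11.2, 12.6 and 12.1 TPM in complemented plants. All 3 genotypes overlapped, and csld5 held both the lowest library and one near the top. Neither the csld5 against col-0 difference of -0.13 ± 0.09 (adjusted p = 0.283) nor that of complemented against csld5, 0.01 ± 0.09 (adjusted p = 0.968), passed the edgeR test. The genes whose log2 CPM deviations over the 9 libraries came closest to those of AHK4 were AT2G19090, SHOT1 and PAKRP1, with root mean square differences of 0.0408, 0.0431 and 0.0477, against a median of 0.205 over 18366 genes. AHK4 itself varied by 0.128 on that scale, so these are likenesses between nearly flat profiles.

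The phosphotransfer proteins carry the histidine that accepts the phosphate, and its surroundings in AHP2, AHP3 and AHP5 are shown as a description. AHP1 and AHP4 encode it too, at codons 79 and 74, so the site is not particular to these 3 genes. The coding DNA below comes from the RefSeq annotation of TAIR10.1, 45 bases each read across an intron, with the codon of that histidine in capitals. It is codon 82 in AHP2 (chr3:11264754-11264881, minus strand), codon 82 in AHP3 (chr5:15749739-15749875, plus strand) and codon 83 in AHP5 (chr1:848673-848811, plus strand).
AHP2: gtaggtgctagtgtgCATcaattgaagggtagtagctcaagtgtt
AHP3: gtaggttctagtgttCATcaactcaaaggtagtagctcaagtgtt
AHP5: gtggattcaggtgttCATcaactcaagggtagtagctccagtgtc

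AHP2 (AT3G29350, chr3:11264126-11265562, minus strand) fell in csld5. Deposited TPM was 53.4, 54.1 and 49.4 in col-0, 41.4, 38.2 and 33.3 in csld5, and 55.7, 48.9 and 53.9 in complemented libraries. All 3 csld5 libraries were below the other 6, which overlapped with each other. On the log2 scale the mutant differed from the wild type by -0.47 ± 0.09 (adjusted p = 0.00101), and AHP2 rose by 0.50 ± 0.09 in complemented against csld5 (adjusted p = 0.000709, edgeR). Both calls ended with the correction for GC content and length described below, at -0.07 ± 0.06 and -0.01 ± 0.06.

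AHP5 (AT1G03430, chr1:847793-849621, plus strand) had the largest fall of the 10 genes. It had 29.4, 26.8 and 29.3 TPM in col-0, 19.6, 20.6 and 17.8 TPM in csld5, and 25.4, 26.9 and 30.5 TPM in complemented plants. The csld5 libraries again lay below all others without overlap. Log2 fold changes were -0.56 ± 0.09 (adjusted p = 0.000259) and 0.51 ± 0.09 (adjusted p = 0.000538, edgeR) in the 2 comparisons with csld5, and with the same correction -0.34 ± 0.09 and 0.23 ± 0.09, the latter not called.

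AHP3 (AT5G39340, chr5:15748731-15750891, plus strand) lay just outside the threshold in csld5 against col-0. It had 23.3, 25.9 and 21.7 TPM in col-0, 22.3, 19.2 and 15.5 TPM in csld5, and 24.3, 28.2 and 26.5 TPM in complemented libraries. The first csld5 library fell within the col-0 range, whereas all 3 complemented libraries were above all 3 of csld5. The difference from col-0 was -0.32 ± 0.12 (adjusted p = 0.0501, edgeR); it became called without csld5 replicate 1 (adjusted p = 0.0033), without col-0 replicate 3 (0.046) and with DESeq2 (0.046). In complemented against csld5 AHP3 rose by 0.49 ± 0.12 on the log2 scale (adjusted p = 0.00516, edgeR), a call lost with the correction (0.20 ± 0.11).

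Summed over AHP2, AHP3 and AHP5, deposited TPM was 106.1, 106.8 and 100.4 in col-0, 83.3, 78.1 and 66.6 in csld5, and 105.4, 104.0 and 110.8 in complemented plants. The csld5 sums were the lowest 3 of the 9, and csld5 replicate 3 was the lowest of all. The receptors summed to 53.2 ± 0.415, 59.2 ± 5.59 and 51.7 ± 2.19 TPM in col-0, csld5 and complemented libraries. For ARR1, ARR2, ARR10 and ARR12 together the sums were 69.0 ± 0.903, 70.1 ± 4.94 and 63.1 ± 2.29 TPM.

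Of the type-B regulators, ARR1 (AT3G16857, chr3:5755714-5759443, plus strand), an activator of early cytokinin responses, was the gene that rose. It had 17.8, 17.9 and 17.2 TPM in col-0, 21.8, 22.5 and 25.5 TPM in csld5, and 15.8, 16.7 and 17.0 TPM in complemented plants. The csld5 libraries were all above the other 6, and the complemented libraries were all below those of col-0. ARR1 rose by 0.38 ± 0.06 on the log2 scale in csld5 against col-0 (adjusted p = 0.000271) and its fold change in complemented against csld5 was -0.48 ± 0.06 (adjusted p = 6.69e-05, edgeR). The complemented level did not pass the test against col-0, at -0.09 ± 0.06 (adjusted p = 0.633, edgeR).

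ARR10 (AT4G31920, chr4:15444053-15447042, minus strand) and ARR12 (AT2G25180, chr2:10724301-10727272, minus strand) act together with ARR1 as the main type-B activators in shoots. ARR10 had 16.2, 14.2 and 12.5 TPM in col-0, 11.6, 13.6 and 12.8 TPM in csld5, and 13.2, 12.4 and 12.4 TPM in complemented libraries. ARR12 had 23.1, 26.9 and 28.3 TPM in col-0, 21.7, 25.6 and 23.1 TPM in csld5, and 23.3, 22.9 and 26.1 TPM in complemented libraries. Both genes overlapped between all genotypes. In csld5 against col-0 the log2 fold changes were -0.20 ± 0.09 for ARR10 (adjusted p = 0.0869) and -0.17 ± 0.08 for ARR12 (adjusted p = 0.113), neither called by edgeR. Leaving out 1 wild-type library brought a call in each case: ARR10 without col-0 replicate 3 (-0.27, adjusted p = 0.032, edgeR) and ARR12 without col-0 replicate 1 (-0.25, adjusted p = 0.034).

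ARR2 (AT4G16110, chr4:9112686-9116164, plus strand), a type-B regulator also linked to ethylene signalling, had 11.04, 10.8 and 10.8 TPM in col-0, 9.36, 10.9 and 11.7 TPM in csld5, and 10.1, 9.18 and 10.2 TPM in complemented plants. The csld5 libraries spanned those of col-0. The complemented libraries were all below col-0 but overlapped with csld5. None of the 3 comparisons passed the edgeR test for ARR2, with a log2 fold change of -0.05 ± 0.08 for the mutant against the wild type, and of -0.08 ± 0.08 and -0.13 ± 0.07 for complemented plants against the mutant and the wild type. With the correction for GC content and length described below, ARR2 was called lower in csld5 against col-0 (-0.33 ± 0.07) and higher in complemented against csld5 (0.20 ± 0.07).

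**Figure D2:**
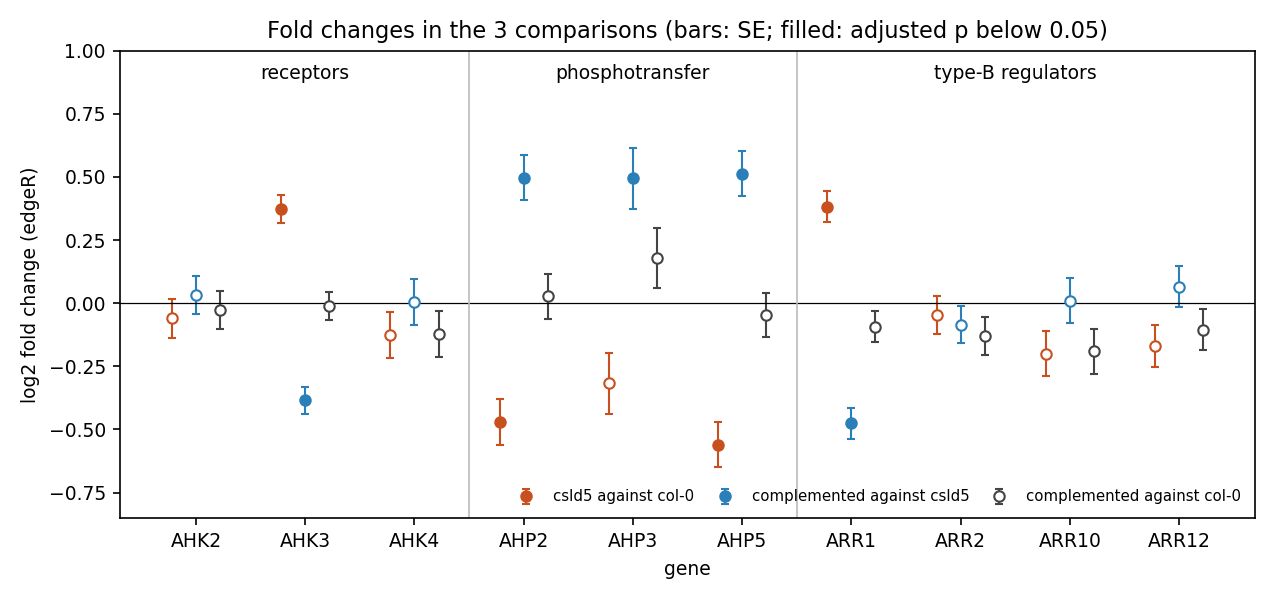
Log2 fold changes with SE (vertical axis, edgeR) of the 10 genes in the 3 comparisons, filled where the adjusted p was below 0.05. AHK3 and ARR1 are filled above 0 in csld5 against col-0 and below 0 in complemented against csld5, AHP2 and AHP5 the other way round, and none of the 10 is filled in complemented against col-0.

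The question put to the complemented plants is whether CSLD5 expressed from the ATML1 promoter changes these levels in the mutant. In complemented against csld5, AHP2, AHP3 and AHP5 rose and AHK3 and ARR1 fell, while AHK2, AHK4, ARR2, ARR10 and ARR12 did not pass the test. The background was 19.8% of genes higher and 21.1% lower, against 3 higher and 2 lower of the 10. The complemented libraries of these 5 genes lay wholly above or below those of csld5, as did 25.9% and 25.7% of all genes. These fold changes share the csld5 libraries with those against col-0, so the opposite signs in the 2 comparisons are not independent measurements.

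The comparison of complemented plants with col-0 does not contrast csld5, though the csld5 libraries entered the shared filter, scaling and estimate of spread. None of the 10 genes was called by edgeR, DESeq2 or limma, where 1.53% of all genes were called by edgeR. Before adjustment, 1 of the 10 passed the same threshold by edgeR, ARR10 with -0.19 ± 0.09 (adjusted p = 0.443), and 0 by DESeq2 and by limma. The number of genes called in all, 346, was 139, 170 and 154 without col-0 replicate 1, col-0 replicate 2 and complemented replicate 1. In a fit of these 2 genotypes only, it was 451. ARR1 and ARR2 were the genes whose complemented libraries all lay outside the col-0 range, both below it, and in this way 10.2% of all genes lay wholly below and 9.37% wholly above. The largest rise was that of AHP3, 0.18 ± 0.12 (adjusted p = 0.638, edgeR). AHK3, at 75.1 ± 3.0 CPM in col-0 and 74.5 ± 1.68 CPM in complemented libraries, had the smallest difference, -0.01 ± 0.06.

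The make-up of each class was followed as the share of each gene in its summed TPM, which does not depend on the scaling between libraries. AHK3 supplied 43.7%, 43.2% and 46.6% of receptor TPM in the col-0 libraries, 53.9%, 52.7% and 51.4% in csld5 and 46.4%, 45.8% and 44.4% in complemented plants. The 3 csld5 shares were the highest of the 9. Shares of a class add up to the whole, so a higher share of AHK3 leaves less for AHK2 and AHK4, whatever their own levels do. AHK2 had 31.0 ± 0.306% in col-0, 27.0 ± 1.41% in csld5 and 31.3 ± 1.69% in complemented libraries, and AHK4 had 24.5 ± 2.13%, 20.3 ± 1.91% and 23.1 ± 1.05%.

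Type-B shares were taken over ARR1, ARR2, ARR10 and ARR12 only. ARR14, at a mean of 32.6, 22.0 and 26.9 TPM in col-0, csld5 and complemented libraries, was not part of the sum. Within these 4 genes the share of ARR1 was 26.1%, 25.7% and 25.1% in col-0, 33.8%, 31.0% and 34.9% in csld5, and 25.3%, 27.3% and 25.9% in complemented libraries. Again the csld5 libraries lay above all others. ARR12 had the largest share of the 4 in col-0 and complemented plants, at 37.8 ± 3.67% and 38.2 ± 1.34%. In csld5 its 33.5 ± 1.84% overlapped with the 33.2 ± 2.02% of ARR1. In the phosphotransfer class AHP2 supplied 50.1 ± 0.755%, 49.6 ± 0.591% and 49.5 ± 3.05% of uncorrected TPM in the 3 genotypes. An exact two-sided permutation test of 3 against 3 libraries cannot go below p = 0.1. That smallest value was reached in 10 of the 30 share comparisons, and no adjusted p was below 0.3. Shares of the same class are tied to each other, so the 30 are not independent comparisons.

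**Figure D3:**
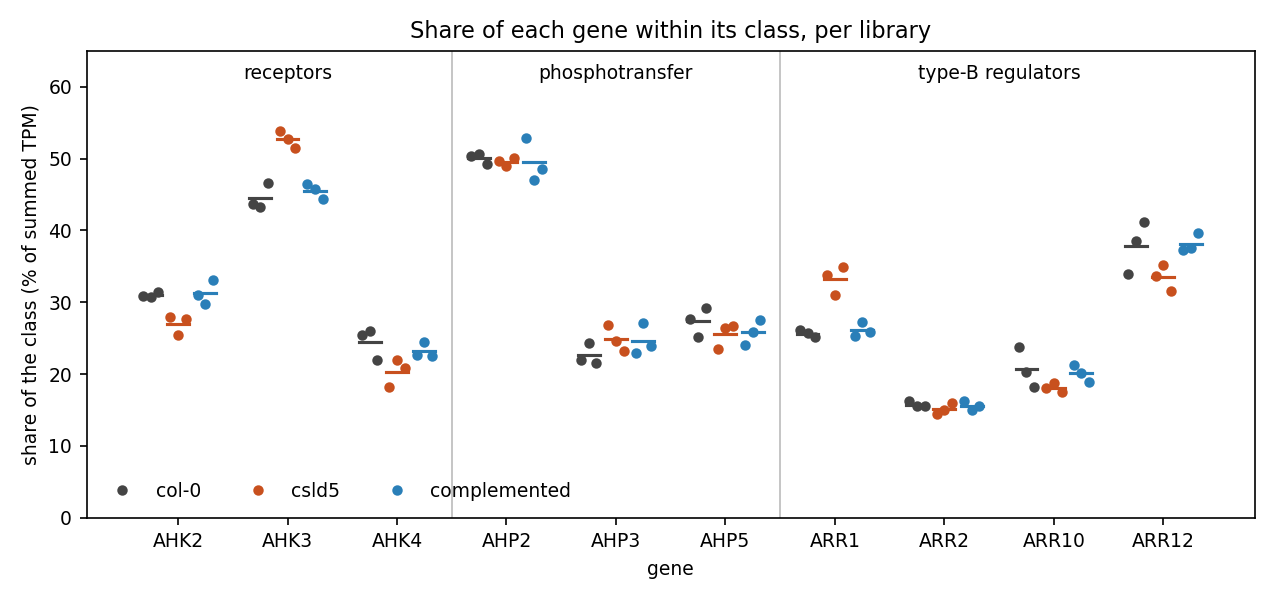
Share of each gene in the summed deposited TPM of its class, in percent (vertical axis), for the 10 genes (horizontal axis), with points for libraries, bars for means and colours for genotypes. Each class holds only its members among the 10 genes. The csld5 shares of AHK3 and ARR1 lie above those of both other genotypes, and those of AHP2 lie close to 50.1%, the col-0 mean, in all 3.

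The genes that rose and those that fell differ in length and base composition, which the choice of genes did not use. AHP2, AHP3 and AHP5 have 933, 1321 and 1334 bases of exon with a GC content of 36.66%, 37.47% and 37.71%, against medians of 1706 bases and 41.06% over 22580 tested genes. AHK3 and ARR1 have 4513 and 3358 bases and a GC content of 41.88% and 42.44%. AHK2 and AHK4 have 4459 and 4575 bases and a GC content of 41.11% and 39.3%. A smooth curve on GC content and length accounted for 33.9% of the deviations of csld5 replicate 3 across genes, the library with the lowest TPM of AHP2, AHP3 and AHP5, and for 2.54% to 21.5% in the other 8 libraries.

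With that curve removed from each library, AHK3 (0.18 ± 0.06, adjusted p = 0.031) and ARR1 (0.18 ± 0.05, 0.02) were still called higher and AHP5 (-0.34 ± 0.09, 0.008) still lower in csld5 against col-0, all by edgeR. AHP2 was then at -0.07 ± 0.06 (adjusted p = 0.41) and AHP3 at -0.09 ± 0.11 (adjusted p = 0.57), and neither was called. AHK2 (-0.20 ± 0.06), ARR2 (-0.33 ± 0.07), ARR10 (-0.28 ± 0.09) and ARR12 (-0.21 ± 0.08) were called lower in this fit. The corrected count was therefore 2 higher and 5 lower of 10, where 15.4% of all genes were higher and 17.7% lower.

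In complemented against csld5 the correction left AHK3 (-0.18 ± 0.06, adjusted p = 0.034) and ARR1 (-0.26 ± 0.05, 0.0026) called lower by edgeR. AHP2 changed sign to -0.01 ± 0.06 (adjusted p = 0.9), and AHP3 (0.20 ± 0.11, 0.17) and AHP5 (0.23 ± 0.09, 0.061) were no longer called. ARR2 also changed sign, to 0.20 ± 0.07 (adjusted p = 0.044), and became the single gene of the 10 called higher, where 11.4% of all genes were higher and 15.2% lower. None of the 10 was called in complemented against col-0 in the corrected edgeR fit, where 1.04% of all genes were higher and 0.966% lower. AHK3 and ARR1 kept their calls in both comparisons with csld5 under every setting run, as did AHP5 in csld5 against col-0.

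**Figure D4:**
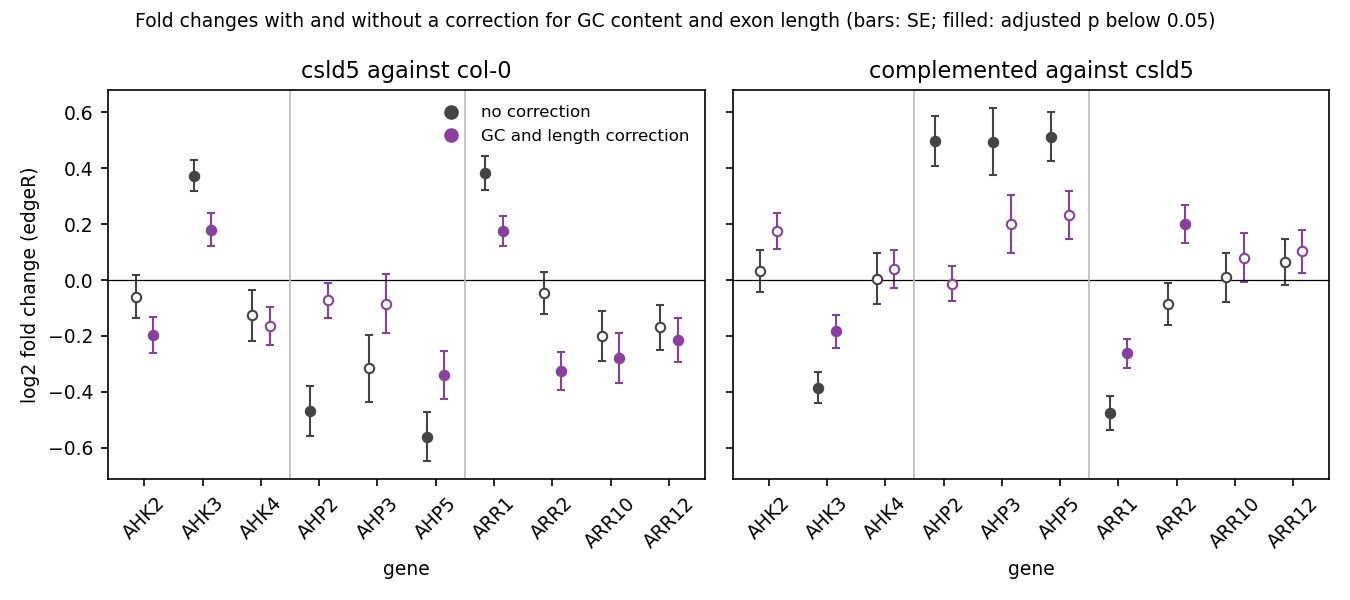
Log2 fold changes with SE (vertical axis, edgeR) of the 10 genes without and with the correction for GC content and exon length, for csld5 against col-0 and complemented against csld5, filled where the adjusted p was below 0.05. The fold changes of AHK3 and ARR1 shrink but stay filled, and that of AHP2 moves from -0.47 to -0.07 in csld5 against col-0.

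Type-B regulators, made by 4 of these genes, are known to bind short core letters, of which AGATT is a form. The sequence just before each gene start was examined for AGATT on both strands, and other forms of the core were not searched. Of the 10 genes, 5 hold AGATT within 250 bases before the annotated start. So do 7 of the 10 type-A genes, while 63.7% of 27443 protein-coding genes do. The windows of AHK3 (chr1:9486639-9486888, plus strand) and ARR1 (chr3:5755464-5755713, plus strand), the genes that rose in csld5, hold 0 matches. That of AHK4 (chr2:369708-369957, minus strand), a receptor that was not called, holds 2. The windows are given 5′ to 3′ on the gene's strand from the RefSeq TAIR10.1 genome, with matches in capitals, and a match is a description of letters only.
AHK3: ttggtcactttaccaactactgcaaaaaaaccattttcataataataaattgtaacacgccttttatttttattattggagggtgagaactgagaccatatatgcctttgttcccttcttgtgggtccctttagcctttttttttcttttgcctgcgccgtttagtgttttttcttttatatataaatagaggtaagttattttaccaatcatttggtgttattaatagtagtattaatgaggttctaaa
ARR1: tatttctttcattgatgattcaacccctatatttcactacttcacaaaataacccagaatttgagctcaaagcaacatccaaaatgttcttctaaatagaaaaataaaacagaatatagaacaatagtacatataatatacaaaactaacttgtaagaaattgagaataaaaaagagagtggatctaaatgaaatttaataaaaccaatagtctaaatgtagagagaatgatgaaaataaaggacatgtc
AHK4: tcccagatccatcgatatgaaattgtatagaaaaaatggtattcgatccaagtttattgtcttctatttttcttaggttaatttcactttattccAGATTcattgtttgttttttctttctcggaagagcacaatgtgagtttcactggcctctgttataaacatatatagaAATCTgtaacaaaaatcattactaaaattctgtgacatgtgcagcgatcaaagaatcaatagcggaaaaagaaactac

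The remaining members of the same families moved in both directions. The pseudo-phosphotransfer gene AHP6, which lacks the histidine and inhibits the relay, had 0.541, 0.364 and 0.876 CPM in col-0, csld5 and complemented plants. AHP6 was not called in csld5 against col-0 (-0.58 ± 0.36, adjusted p = 0.223) and rose in complemented against csld5 (1.26 ± 0.35, adjusted p = 0.0115, edgeR). AHP1, at 2.55 ± 0.642, 1.31 ± 0.26 and 2.42 ± 0.395 CPM, fell by 0.96 ± 0.25 on the log2 scale in csld5 against col-0 (adjusted p = 0.00763, edgeR). AHP1 then rose by 0.89 ± 0.25 in complemented against csld5 (adjusted p = 0.0123). AHP4, at a mean of 0.19 CPM in col-0, was not called in any comparison.

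Of the 7 other type-B genes, 4 could be tested. ARR14 was the abundant one, with 29.97, 34.2 and 33.7 TPM in col-0, 21.9, 22.7 and 21.5 TPM in csld5 and 24.4, 27.7 and 28.5 TPM in complemented libraries. No 2 genotypes overlapped, with complemented plants between the others. ARR14 fell in csld5 against col-0 (-0.57 ± 0.08, adjusted p = 8.88e-05) and rose in complemented against csld5 (0.29 ± 0.08, adjusted p = 0.00972), and complemented against col-0 was not called (-0.28 ± 0.08, adjusted p = 0.105, edgeR). ARR18, at 1.76 ± 0.792 CPM in col-0 and 3.27 ± 0.401 CPM in csld5, rose by 0.88 ± 0.30 (adjusted p = 0.0322). ARR11 (-0.17 ± 0.21) and ARR20 (-0.45 ± 0.87) were not called. With the GC and length correction, the rise of ARR18 in csld5 and the rises of ARR14, AHP1 and AHP6 in complemented against csld5 were no longer called. ARR14 was then called lower in complemented against col-0 (-0.33 ± 0.08, adjusted p = 0.0369, edgeR). Without the correction, across all 8 type-B genes tested, ARR1 included, 2 were higher and 1 lower in csld5 against col-0. That is near the 21.1% and 20.4% of all genes. With the correction 1 was higher and 4 lower, where 15.4% of all genes were higher and 17.7% lower.

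Downstream, the type-A regulators, which type-B proteins activate, were called lower in csld5 against col-0 in 8 of 8 tested of the 10 listed, where 20.4% of all genes were, with a median log2 fold change of -0.77 beside -0.02 over all genes. ARR7 fell most, from 37.7 ± 0.17 CPM in col-0 to 17.0 ± 2.65 CPM in csld5, followed by ARR15 (-1.03), ARR9 (-0.90) and ARR5 (-0.87). In complemented against csld5, 7 of these 8 rose, against 19.8% of all genes, with a list median of 0.67 beside 0.02 over all genes. With the GC and length correction 7 of 8 were lower in csld5 against col-0, against 17.7% of all genes, and the list median was -0.51. In the corrected fit of complemented against csld5, 5 of 8 were higher, against 11.4% of all genes, with a median of 0.28.

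AHK5, a histidine kinase that does not bind cytokinin, rose in csld5 against col-0 (0.71 ± 0.26, adjusted p = 0.0451, edgeR), a call lost with the correction and with library totals. Another histidine kinase, AHK1, was not called there (-0.18 ± 0.11) but was called lower with the correction (-0.30 ± 0.09). Of 4 other genes known to respond to cytokinin, ASL9 (-1.29 ± 0.40, adjusted p = 0.0196) and SHY2 (-0.40 ± 0.10, adjusted p = 0.00638) were called lower, calls lost with the correction, and WUS higher. WUS, which type-B regulators are known to activate, rose in csld5 from 15.7 ± 3.21 to 23.6 ± 4.97 CPM (0.59 ± 0.16, adjusted p = 0.00929, edgeR) and was called lower in complemented against csld5 (-0.49 ± 0.16, adjusted p = 0.0246), the latter neither with the correction nor with library totals. Of the KISS ME DEADLY genes, whose F-box proteins target type-B regulators for degradation, KMD2 rose in csld5 (0.60 ± 0.08, adjusted p = 0.000106). KMD1 was not called in csld5 against col-0 (-0.36 ± 0.14, adjusted p = 0.0529) but was called lower there with the correction (-0.61 ± 0.13) and with library totals (-0.44 ± 0.14), and was lower in complemented plants than in col-0 (-0.65 ± 0.14, adjusted p = 0.0329, edgeR). Of 6 cytokinin response factor genes tested, CRF3 was the one called, lower in csld5 (-0.85 ± 0.18, adjusted p = 0.0023), where 20.4% of all genes were lower. CRF2 was called lower as well with the correction (-0.31 ± 0.07) and with library totals (-0.27 ± 0.08).

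Of 17 tested genes for cytokinin synthesis, activation and breakdown, 2 were higher and 4 lower in csld5 against col-0, close to the 21.1% and 20.4% of all genes. Lower were IPT3, which makes the first intermediate (-1.98 ± 0.38), and the activating enzymes LOG4 (-1.05 ± 0.31), LOG1 (-0.78 ± 0.09) and LOG8 (-0.51 ± 0.09). The degrading enzyme CKX7 (0.40 ± 0.07, a call lost with the correction) and LOG5 (0.47 ± 0.16, lost with library totals), another activating enzyme, were higher. Calls gained were LOG3, higher with the correction (0.51 ± 0.18), and CKX3, lower with library totals (-0.35 ± 0.11).

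**Figure D5:**
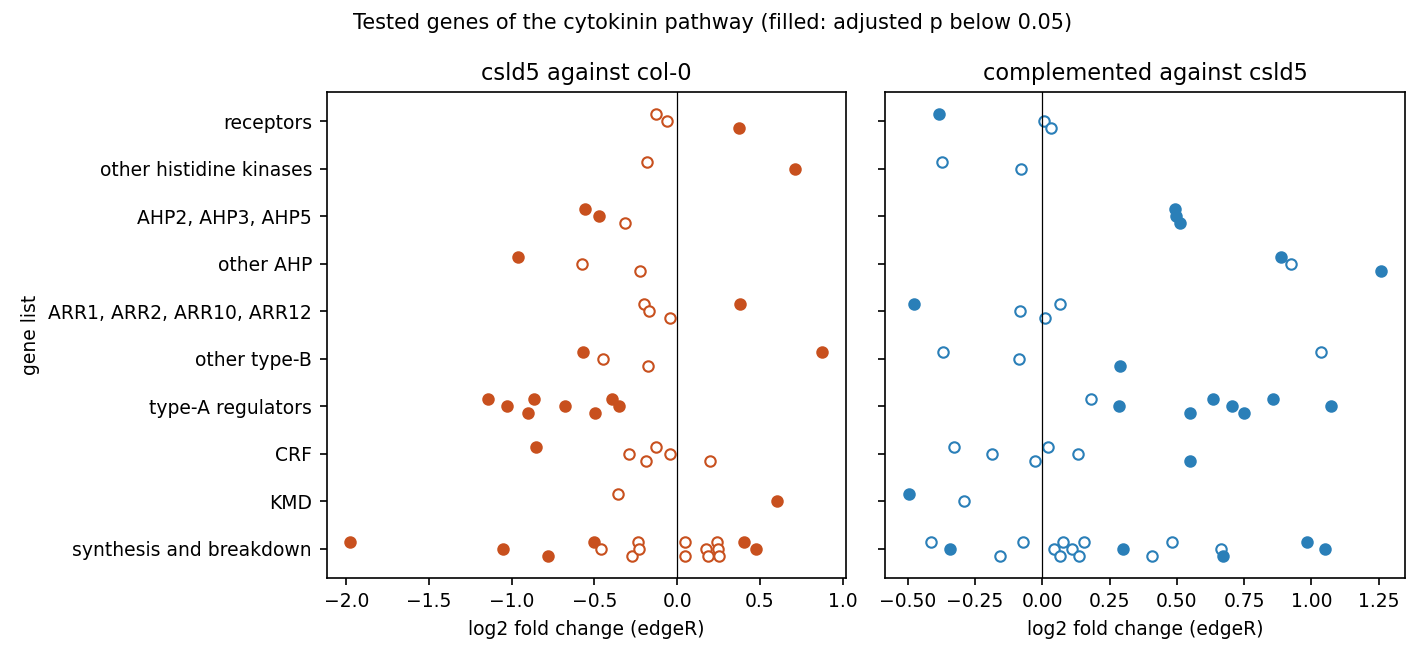
Log2 fold changes (horizontal axis, edgeR) of the tested genes of each cytokinin list (vertical axis), in csld5 against col-0 and complemented against csld5, filled where the adjusted p was below 0.05. All 8 tested type-A genes lie left of 0 and are filled in csld5 against col-0, whereas the receptors and type-B regulators lie on both sides.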

How the data were processed

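Total RNA from dissected inflorescence meristems was sequenced in 9 libraries. Raw read counts by gene and TPM values were deposited, made with Trimmomatic 0.39, HISAT2 2.2.1, featureCounts 2.0.6 and TAIR10, per the submitters' processing notes. The sources used here do not name the TPM tool, annotation release or strand setting, and reads in overlaps cannot be assigned by strand: ARR1 shares 69 exon bases with AT3G16860 on the opposite strand and AHP3 shares 17 with AT5G39350. No TPM value of the 10 genes is missing. In col-0 replicate 1 every gene listed has a read, whereas 932 to 1540 genes have none in the other 8 libraries.

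The deposited counts went into edgeR 4.0.16 under R 4.3.3 (default filter, 22671 genes, TMM, quasi-likelihood F test, 1 fit of 9 libraries with genotype as the term). Errors of fold changes are SE, those of levels SD (n = 3). Alternatives were DESeq2 1.42.0, limma 3.58.1 on log2(TPM + 1) and log2(TPM + 0.1), other scalings and filters, a replicate block, fits of 2 genotypes, each library left out, and a GC and length curve (mgcv 1.9.3) used as an offset. The main edgeR fit was tested on simulated counts with planted fold changes and no GC or length effect. The GC and length curve, the shares and the other alternatives were not tested in this way. Positions come from the RefSeq annotation of TAIR10.1.

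The 10 genes were taken by locus identifier, but they and the other lists were chosen with earlier results of these data known. Named were all 10 genes, up to 4 called genes of smallest p per list and comparison, the paralogues of the 10, CSLD5, WUS and the 3 profiles most like AHK4. CLV3, ATML1, VGD1, KMD1 where not called, AHK1, LOG3, LOG4, LOG5 and CKX3 were named after their values were seen.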

Additional observations from a re-analysis of the deposited data

How the results depend on the processing

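Depth did not limit the 10 genes, each with at least 648 reads per library. The number of libraries limited the tests of shares, since an exact permutation test of 3 against 3 cannot give a p below 0.1. In csld5 against col-0, 9417 genes were called, and 5983 with both the GC and length correction and csld5 replicate 3 left out, an alternative added after the data were seen. Of the 10 genes, 2 were called lower, against 5 with library totals, 5 with the GC and length correction and 5 with that correction and the replicate block. In complemented against csld5, 9273 genes were called, against 6017 with the correction, 5877 with correction and block, and 4584 with the correction and csld5 replicate 3 left out. The 3 of 10 called higher became 1, 1 and 0 under those settings. AHP2 in complemented against csld5 was then -0.013, -0.013 and -0.033, and ARR2 was 0.20, 0.20 and 0.19. In complemented against col-0 the 346 called genes were 663 with DESeq2, 211 with limma on log2(TPM + 1), 217 on log2(TPM + 0.1) and 137 on log2(TPM + 1) without a filter. The cause of these shifts was not tested.

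Leaving out 1 library at a time gave 7403 to 9451, 7354 to 9412 and 139 to 461 called genes in the 3 comparisons. The members called lower in csld5 against col-0 ranged from 2 to 4, the highest without col-0 replicate 3, and the other counts of members were the same in every such fit, at 2 higher for the mutant, 3 higher and 2 lower in complemented against csld5, and 0 in complemented against col-0. AHP3 in csld5 against col-0 was called with library totals (adjusted p = 0.016), without the filter (0.047), at 1 CPM in 3 libraries (0.043) and with DESeq2 (0.046). AHK2 was called higher in complemented against csld5 with correction and block (0.17, adjusted p = 0.035). Of the fold changes of the 10 genes under all alternatives, 597 kept direction and side of the threshold, 21 gained a call, 9 lost one with the same sign and 33 changed sign. Of the 33 sign changes, 29 had no call in either fit. They concern 12 fold changes. AHK4 in complemented against csld5 was -0.0010 with DESeq2 size factors, -0.0027 with DESeq2, and -0.0024, -0.0019 and -0.0024 with limma on log2(TPM + 1), on log2(TPM + 0.1) and without a filter. With library totals ARR2 in complemented against csld5 was 0.011 and AHK3 in complemented against col-0 was 0.0033. AHP3 in csld5 against col-0 was 0.017 with the correction and csld5 replicate 3 left out. AHP2 in complemented against col-0 was -0.085 with the correction, -0.086 with correction and block, and -0.089 with the correction and csld5 replicate 3 left out. Leaving out 1 library gave, for csld5 against col-0, -0.13 to 0.0046 for AHK2 and -0.086 to 0.018 for ARR2. For complemented against csld5 it gave -0.040 to 0.11 for AHK2, -0.10 to 0.079 for AHK4 and -0.028 to 0.055 for ARR10. For complemented against col-0 the ranges were -0.099 to 0.011 for AHK2, -0.038 to 0.021 for AHK3, -0.0096 to 0.079 for AHP2 and -0.12 to 0.0075 for AHP5. The share alternative that treats missing TPM cells differently gave no value, since no such cell is missing. Shares computed from counts per exon length moved by at least 1 SD in 18 of 30 cases. The 90 cases with 1 library left out cannot decide this. Dropping 1 of 3 libraries never moves a mean by the SD of those 3.

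Deviations of libraries with the same replicate number correlated at -0.106 to 0.196, those with other numbers at -0.243 to 0.183. Taken within only 3 libraries per genotype, these values cannot decide whether the numbers mark pairs, and the labels state no block. With the number as a replicate block, 9540 and 9504 genes were called in csld5 against col-0 and complemented against csld5, and the members lower in the former were 3, AHP3 being added (-0.32, adjusted p = 0.035, edgeR).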
